A study of Mus musculus with 48 samples.

Results

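The 49 genes described here encode enzymes that place or remove histone and DNA modifications, together with ATP-dependent remodelers and readers of chromatin. The rule took them by symbol and used no measured value, but the list was chosen with earlier results of these data known. All 49 were found among the 55450 genes of both deposited tables. RNA-seq followed adipocyte differentiation of primary white preadipocytes from inguinal white adipose tissue (iWAT) and of mouse embryonic fibroblasts (MEFs), in wild-type (WT) cells and in double knockout (DKO) cells of mice that lack both HMGN1 and HMGN2, proteins that bind nucleosomes across the genome. The WT mice were C57BL/6 and the DKO mice a B6.Cg line, so line and genotype cannot be told apart. The study held 48 libraries in 16 groups of 3, with preadipocytes at days 0, 3, 6 and 9 and MEFs at days 0, 4, 8 and 12. Both genotypes received insulin, dexamethasone, IBMX, T3 and rosiglitazone (for 4 days in preadipocytes and 8 days in MEFs), and then insulin and T3 alone for 4 days. The preadipocytes came from adult mice and the MEFs from mid-gestation embryos at an early passage, and the sources used here do not say whether animals were pooled. The study calls the replicates biological, and the sources used here do not say whether they were separate animals or separate cultures of the same cells, so the p-values measure the spread between these samples. In bulk RNA, fewer cells of a type and less RNA per cell cannot be told apart.

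Histone acetyltransferases and deacetylases set the acetylation that accompanies open chromatin, while methyltransferases and demethylases write and erase marks such as H3K4 methylation at active genes and H3K9 or H3K27 methylation at silent ones. UHRF1 and DNMT1 copy DNA methylation onto newly made strands and are transcribed mainly in dividing cells, whereas DNMT3A and DNMT3B place it anew and TET enzymes oxidise it. Confluent preadipocytes and MEFs divide again after the hormonal cocktail before they become adipocytes, and adipocyte genes such as Pparg are then switched on.

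Genes of the cell division cycle often carry E2F-type letters near their start, and the promoter windows of the members with such letters are shown first because they were called together in the time course below. The windows come from RefSeq (GRCm38.p6, the same mouse build as mm10) and span 250 bases before to 50 after the annotated start. The letters searched were TTTCCCGC, TTTGGCGC, TTTCGCGC and TTTGCCGC on both strands, and they were chosen after the members' values had been seen. Of the 45 members with a window, 6 held at least 1 match (13.3%). So did 704 of 27025 genes with a window, expressed or not (2.6%), 7 of 80 other chromatin genes (8.75%) and 5 of 22 proliferation genes (22.7%). All 49 members were tested, so the 2.6% is not a like background. Among genes tested in both cell types 498 held the letters and 10372 lacked them. A match is a description and not a site of binding or a cause. Each sequence is printed 5′ to 3′ along the gene's strand with the match in capitals.
Uhrf1, first base at -185 from the start, chr17:56304098-56304165, plus strand: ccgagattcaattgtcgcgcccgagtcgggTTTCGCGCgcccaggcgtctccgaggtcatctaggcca
Dnmt1, at -219 with another match at 34, chr9:20952805-20952872, minus strand: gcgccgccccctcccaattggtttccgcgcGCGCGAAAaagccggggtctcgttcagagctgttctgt
Suz12, at -219, chr11:79992857-79992924, plus strand: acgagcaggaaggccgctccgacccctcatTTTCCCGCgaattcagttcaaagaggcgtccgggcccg
Kat2a, at -59, chr11:100712489-100712556, minus strand: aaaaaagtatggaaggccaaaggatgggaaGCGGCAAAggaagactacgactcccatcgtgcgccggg
Suv39h1, at -64, chrX:8074388-8074455, minus strand: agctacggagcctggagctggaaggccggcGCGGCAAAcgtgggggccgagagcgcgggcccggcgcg
Ezh2, at 4, chr6:47595009-47595038, minus strand: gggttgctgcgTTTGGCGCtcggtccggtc

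Library totals ran from 19809397 to 36006696 counts in preadipocytes and from 18962483 to 33083213 in MEFs, so that the lowest member count of any library was 7, for Hdac9 in DKO preadipocytes at day 3. Hmgn2 lay between 32.6 and 136 CPM (counts scaled to the size of the library) in WT preadipocytes and was at most 0.335 CPM in every DKO library. Hmgn1 reads remained at 70.0 to 115 CPM in the DKO libraries, 1.03- to 2.2-fold below WT by day and cell type, and at day 9 of preadipocytes Hmgn1 did not pass the test (adjusted p = 0.685). Counts per gene do not show which exons these reads came from, and the study states that its DKO cells lack transcripts of the deleted exons and both proteins, so the Hmgn1 count does not check the knockout. In the MEFs, 3 libraries stood apart from their own group over the 3000 most variable genes: WT day 4 replicate 1 (r = 0.939 to 0.94 with its group, 0.992 between the other two), WT day 8 replicate 2 (0.918 to 0.92, against 0.993) and DKO day 8 replicate 3 (0.897 to 0.931, against 0.986). Their summed CPM of 10 adipocyte markers were 5881, 3824 and 4404, against 1899 to 2014, 9065 to 9258 and 12310 to 15760 in their groups. Each was most like a library of another group, WT day 4 replicate 1 like DKO day 4 replicate 3 (r = 0.978), WT day 8 replicate 2 like DKO day 8 replicate 3 (0.975) and DKO day 8 replicate 3 like DKO day 4 replicate 1 (0.976), and whether any label was exchanged was not tested. DKO MEF day 0 replicate 1 was closer to WT day 0 replicate 2 (r = 0.977) than to its own group (0.879 to 0.924). Values of single members in WT MEFs use all libraries, and the calls that change without the 3 are given with the step from day 4 to day 8. Adipocyte markers rose with time in both cell types (from 308 to 25280 CPM in WT preadipocytes and from 992 to 16280 CPM in WT MEFs, means of 3), while markers of skeletal muscle, epithelium and endothelium summed to at most 1.7, 12.4 and 36.1 CPM. Other markers moved with the WT steps too. Over the WT preadipocyte days macrophage and leukocyte markers averaged 303, 131, 9299 and 5110 CPM, smooth muscle markers 5241, 1008, 107 and 126 CPM, and fibroblast and preadipocyte markers 21610, 28010, 11380 and 11150 CPM. Over the WT MEF days the means were 8281, 5582, 5881 and 5200 CPM, 1028, 194, 212 and 372 CPM, and 23370, 8132, 20830 and 15850 CPM. Their part in the members' WT steps was not tested.

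In WT cells the members moved with the day, in both directions. A member was called when edgeR's quasi-likelihood test gave a Benjamini-Hochberg adjusted p under 0.05 over all genes tested. From day 0 to day 3 of preadipocytes 15 members were called higher and 7 lower, or 30.6% and 14.3% of the 49, where 20.7% of all 16188 genes were called higher and 21.4% lower. From day 3 to day 6 the counts were 12 higher and 18 lower (24.5% and 36.7%, against 32.8% and 31.9% of all genes), and from day 6 to day 9 they were 6 higher and 11 lower (12.2% and 22.4%, against 13.7% and 13.3%). In WT MEFs 12 members were called higher and 16 lower from day 0 to day 4 (24.5% and 32.7%, against 26.8% and 26.9% of 16359 genes), and 7 higher and 16 lower from day 8 to day 12 (14.3% and 32.7%, against 20.7% and 19.1%). Most of these shares lay near those of all genes, with the higher share of the first preadipocyte step and the lower share of the last step in both cell types above them. Scaled by library size only, the first preadipocyte step gave 16 higher and 4 lower, and the first MEF step gave 14 higher and 13 lower. Consecutive steps share the libraries of 1 day.

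**Figure D1:**
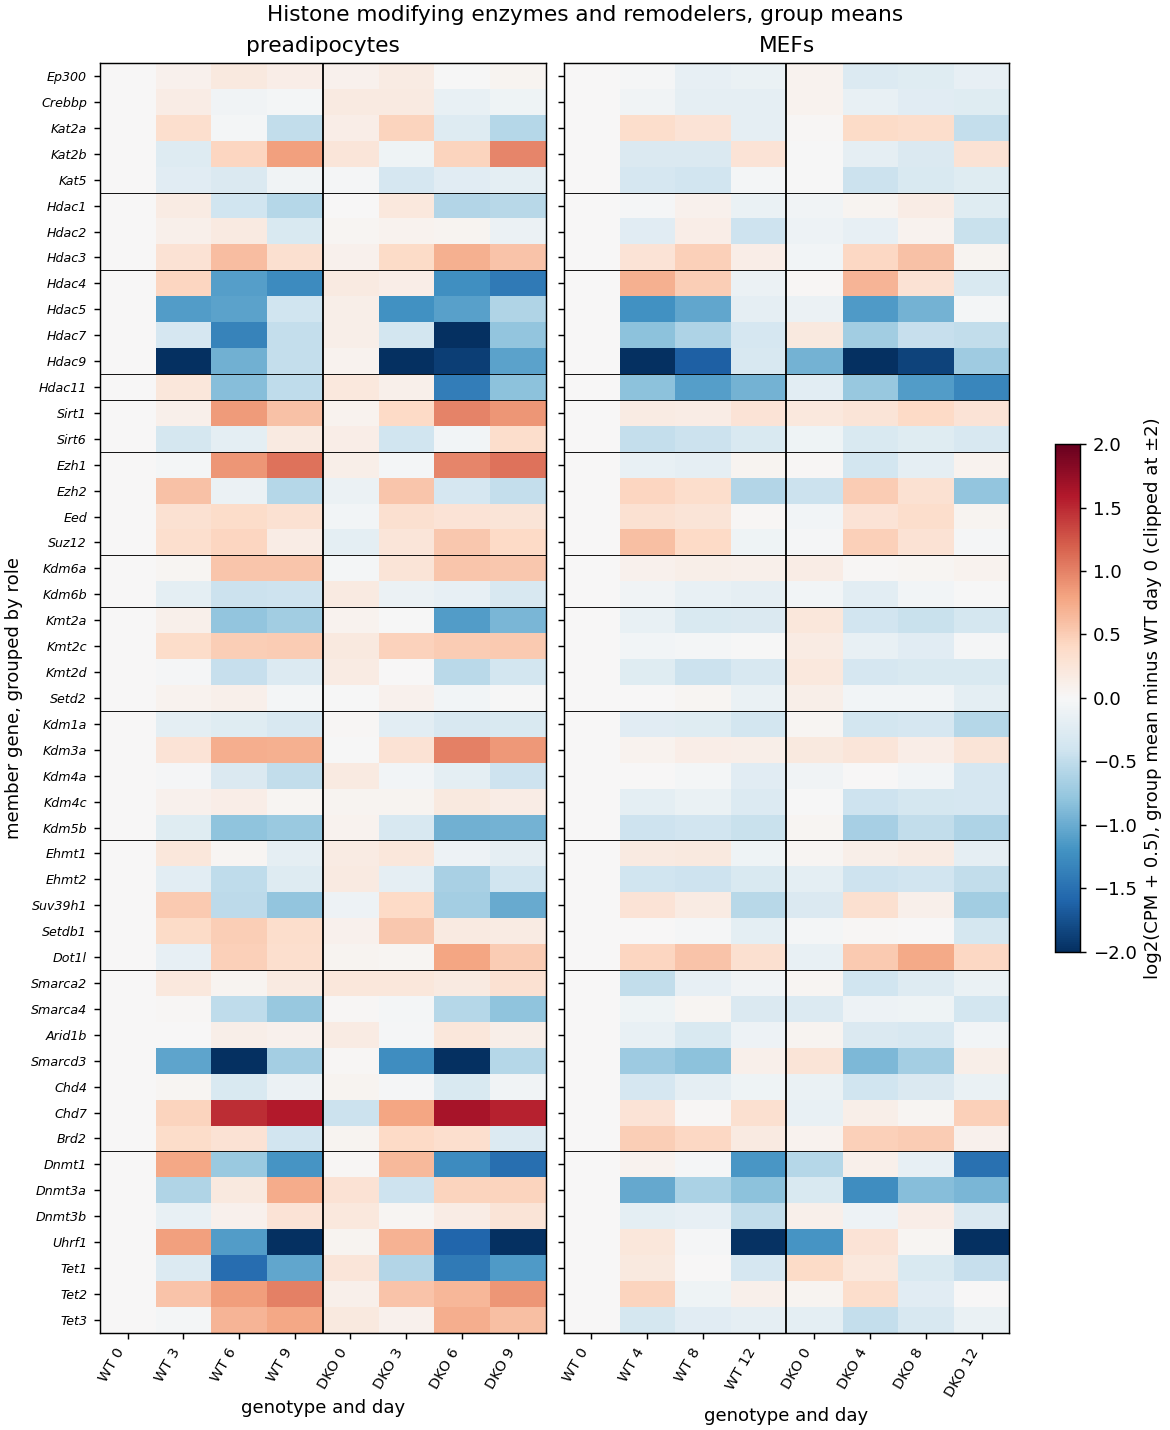
Group mean of log2(CPM + 0.5) of each member (rows, grouped by role) in each genotype and day (columns), minus the mean of WT day 0 in the same cell type, with red for higher, blue for lower and colours clipped at ±2. In preadipocytes Uhrf1 and Dnmt1 are red at day 3 and blue at days 6 and 9 in both genotypes, and Hdac9 is dark blue at the second day sampled in both cell types.

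The MEF step from day 4 to day 8 depended on the libraries that stood apart. With all libraries 1 member was called higher (Dnmt3a) and 1 lower (Tet2), against 1.72% and 1.34% of all genes. The WT steps hold only WT libraries, so leaving out the 3 took out WT day 4 replicate 1 and WT day 8 replicate 2 here. Days 4 and 8 then had 2 libraries each. Without the 3 libraries 13 were called higher and 11 lower, against 25.4% and 23.0% of all genes. Leaving out WT day 4 replicate 1 alone gave 15 calls (27.6% of all genes), leaving out WT day 8 replicate 2 alone gave 11 (29.9%), and leaving out any other WT library of days 4 and 8 gave 0. Without the 3 libraries Hdac9 rose by 2.59 on the log2 scale over this step (adjusted p = 2.96e-09), Hdac2 by 0.57 and Smarca2 by 0.52, and Hdac11 fell by 0.79. The first MEF step then had 13 higher and 20 lower (32.1% and 32.4% of all genes), with 5 calls gained and 0 lost. The last had 11 higher and 17 lower (32.0% and 20.3%), with 8 gained, among them Hdac9 and Dnmt3a, and 3 lost (Kdm4a, Setd2 and Tet1).

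Over the whole WT course, 39 members were called in at least 1 of the 3 steps in preadipocytes, 36 in MEFs and 30 in both, or 79.6%, 73.5% and 61.2%. The shares of all genes were 80.9%, 66.7% and 59.4%. Without the 3 MEF libraries 40 were called in MEFs and 33 in both (82.1% and 71.5% of all genes). The 4 that were called in no step of either cell type were Ep300 and Crebbp, which encode the acetyltransferases p300 and CBP, the H3K27 demethylase Kdm6b and the DNA methyltransferase Dnmt3b (8.16%, against 10.1% of all genes). Without the 3 libraries Ep300 and Crebbp were called lower from day 4 to day 8 of MEFs (adjusted p = 0.0116 and 0.0402). The range between a member's highest and lowest day was 0.72 on the log2 scale in the median in preadipocytes and 0.422 in MEFs. It was at least 1 for 16 members in preadipocytes and for 7 in MEFs, and under 1.5-fold for 22 and 37. The flattest members were the SWI/SNF subunit Arid1b in preadipocytes (range 0.123) and the H3K4 methyltransferase Kmt2c in MEFs (0.0603). Ranges and calls were set within each cell type, since the tables of the cell types were normalised separately.

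Uhrf1, whose product brings DNMT1 to hemimethylated DNA, had the widest range in preadipocytes, 3.87 on the log2 scale. Its WT libraries gave 24.4, 18.7 and 29.7 CPM at day 0, 35.0, 47.4 and 45.9 at day 3, 11.1, 10.2 and 11.2 at day 6, and 2.39, 2.78 and 2.18 at day 9. No library of one day overlapped with those of the next, the level being highest at day 3 and lowest at day 9. The step from day 0 to 3 was 0.82 ± 0.16 on the log2 scale (SE, n = 3 per day, adjusted p = 0.00166), followed by -1.97 ± 0.166 (adjusted p = 1.15e-06) and -2.14 ± 0.19 (adjusted p = 3.53e-05). In WT MEFs Uhrf1 stayed between 30.1 and 41.2 CPM at days 0, 4 and 8 and then lay at 8.03, 7.51 and 7.55 CPM at day 12, a fall of 4.07-fold (adjusted p = 1.9e-07).

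Dnmt1, the maintenance DNA methyltransferase, followed the same order of days in preadipocytes. WT libraries gave 63.2, 62.4 and 78.4 CPM at day 0, 101, 124 and 126 at day 3, 40.6, 38.4 and 41.2 at day 6, and 30.8, 29.1 and 28.9 at day 9. All 3 steps were called, at 0.79, -1.53 and -0.44 on the log2 scale. In MEFs Dnmt1 differed little over the first 3 days sampled (97.5 to 120 CPM over the WT libraries) and fell 2.24-fold from day 8 to day 12 (adjusted p = 2.93e-06).

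The de novo enzyme Dnmt3a moved the other way in preadipocytes. It dropped from 30.1 ± 3.72 CPM (SD, n = 3) at day 0 to 19.8 ± 3.77 at day 3 (adjusted p = 0.00576), and then rose over the next steps to means of 34.6 ± 2.72 and 50.8 ± 5.41, both called. In MEFs it started at 163 ± 11.6 CPM, fell to 79.7 ± 1.17 at day 4 (adjusted p = 1.43e-06) and was 91.8 ± 2.83 at day 12. Among the TET dioxygenases, Tet2 rose over the first step in both cell types (0.58 and 0.44 on the log2 scale), Tet3 rose from day 3 to day 6 in preadipocytes (0.76), and Tet1 fell over that step (-1.65, adjusted p = 0.000302) to 0.948 ± 0.179 CPM.

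Ezh2, the catalytic subunit of the H3K27 methyltransferase complex PRC2 in dividing cells, rose and fell in the same order of days as Uhrf1. WT preadipocytes gave 14.8, 11.5 and 17.7 CPM at day 0, 19.6, 21.9 and 24.8 at day 3, 14.3, 12.7 and 13.0 at day 6, and 9.60 ± 1.35 in the mean of day 9. The day 3 libraries lay above those of every other day, and the 3 steps were called at 0.60, -0.71 and -0.48 on the log2 scale. Its paralog Ezh1, which serves PRC2 in cells that no longer divide, was 20.3 ± 2.43 CPM at day 3 and rose to 39.1 ± 3.84 at day 6 (0.96 ± 0.0988 on the log2 scale, adjusted p = 5.24e-06) and 44.9 ± 1.61 at day 9. In MEFs Ezh2 fell 1.98-fold from day 8 to day 12 (adjusted p = 4.63e-05) while Ezh1 rose 1.17-fold (adjusted p = 0.00857). The core subunits Suz12 and Eed were called higher over the first step in both cell types, by 0.34 and 0.32 in preadipocytes and by 0.60 and 0.29 in MEFs.

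Among the H3K9 and H3K79 methyltransferases, Suv39h1, which methylates H3K9 in constitutive heterochromatin, resembled Ezh2. It was 16.5 ± 3.37, 23.6 ± 2.45, 11.3 ± 0.892 and 9.23 ± 0.536 CPM over the WT preadipocyte days, and 22.3 ± 1.12, 27.1 ± 1.34, 25.0 ± 0.564 CPM over the first 3 WT MEF days sampled, with 15.4, 15.4 and 14.1 CPM at day 12. The steps to day 3 and day 6 were called in preadipocytes (0.52 and -1.05), as were the first and last in MEFs (0.27 and -0.75). Ehmt1 and Ehmt2, which form the GLP and G9a pair, parted at the first step, with Ehmt1 higher (0.23 in preadipocytes and 0.18 in MEFs) and Ehmt2 lower (-0.20 and -0.41). Setdb1, the H3K9 methyltransferase that works with KRAB zinc finger repressors, rose over the first preadipocyte step (0.40), and Dot1l, the H3K79 methyltransferase, rose from day 3 to day 6 (0.65) and, in MEFs, from day 0 to day 4 (0.43).

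The summed level of 28 proliferation genes (cyclins, replication and mitosis factors, none of them a member) moved with these members. It was 933 ± 202, 1750 ± 237, 475 ± 40.2 and 228 ± 15.4 CPM over the WT preadipocyte days and 1082 ± 74.1, 1382 ± 31.3, 1276 ± 8.48 and 385 ± 4.59 CPM over the WT MEF days. In preadipocytes 26 of the 28 were called higher at the first step, 28 lower at the second and 27 lower at the third, and in MEFs 28 were called lower at the last. Its part in the members' changes was not tested. The 6 members with E2F-type letters in their window were each called higher from day 0 to day 3 in preadipocytes and lower from day 8 to day 12 in MEFs. So were 4 of the 39 members whose window lacked the letters (Brd2, Eed, Ehmt1 and Hdac4) and Hdac3, which had no window. Over all genes tested in both cell types the share was 21.5% of 498 with the letters and 9.56% of 10372 without. The steps compared come from different cell types. Suv39h1 was not called at the last preadipocyte step, nor Dnmt1 at the first MEF step. The letters were chosen after the members' values had been seen, and this pair of steps was not set in advance. The members' counts are therefore a description and no test.

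**Figure D2:**
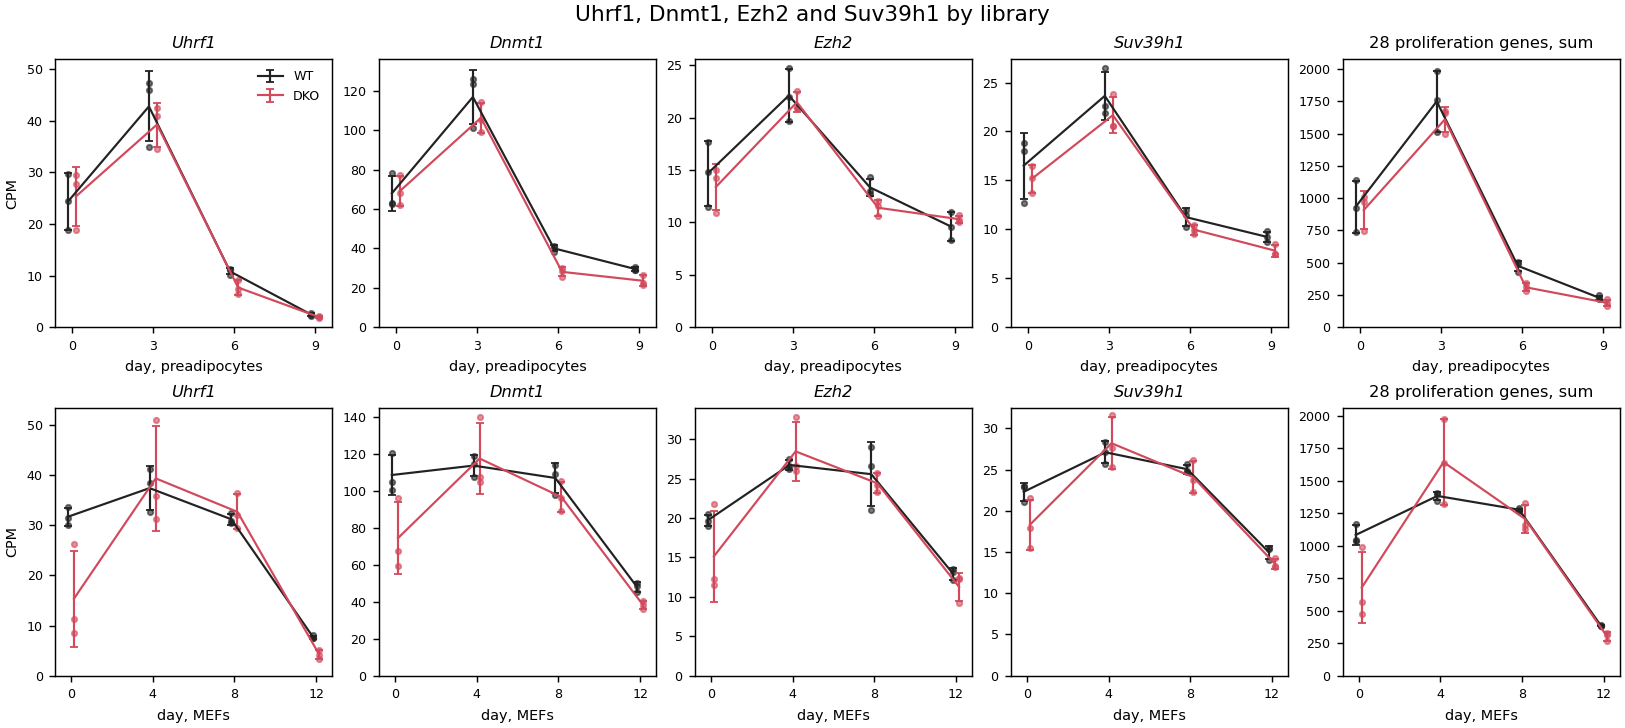
CPM of Uhrf1, Dnmt1, Ezh2 and Suv39h1 and the summed CPM of 28 proliferation genes (y axis from 0) by day (x axis), with 1 point per library, lines through the group means, bars of ± SD, WT and DKO in separate colours, preadipocytes above and MEFs below. Each panel is highest at day 3 in preadipocytes, and in MEFs all are lowest at day 12 in WT, where Uhrf1 lay at 7.51 to 8.03 CPM.

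The class IIa deacetylases, signal-dependent corepressors of MEF2 factors, did not move as 1 group. Hdac9 gave 4.63, 5.86 and 9.42 CPM in the WT preadipocyte libraries at day 0, 0.396, 0.725 and 0.966 at day 3, 2.81, 3.09 and 3.23 at day 6, and 2.86, 6.66 and 4.50 at day 9. Day 3 lay below every other day without overlap, while days 6 and 9 overlapped. The first step was -3.21 ± 0.391 on the log2 scale (adjusted p = 7.99e-05) and the second 2.12 ± 0.394 (adjusted p = 0.000542). WT MEFs gave 17.4, 16.6 and 16.9 CPM at day 0 and 4.44, 0.878 and 1.59 at day 4, a fall of 2.85 ± 0.514 (adjusted p = 0.000961), and 12.2, 14.1 and 14.2 CPM at day 12. The highest of the day 4 values came from replicate 1, which stood apart.

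Hdac5 had the same order of days. Its means over the WT preadipocyte days were 71.3 ± 4.82, 32.6 ± 3.46, 33.8 ± 5.10 and 54.0 ± 1.84 CPM. In WT MEFs they were 70.4 ± 2.91, 30.2 ± 2.69, 34.0 ± 0.466 and 62.3 ± 2.93 CPM. The first and last steps were called in both cell types (-1.12 and 0.68 in preadipocytes, -1.23 and 0.86 in MEFs). Hdac7 fell over the first step in both (-0.33 and -0.83), reached 40.1 ± 6.25 CPM at day 6 of preadipocytes from 101 ± 7.98 at day 0, and rose over the last step (0.85 and 0.27). Hdac4 went against the other class IIa genes, higher at the first step (0.45 and 0.71), with a 2.95-fold fall from day 3 to day 6 of preadipocytes (adjusted p = 7.75e-06).

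Smarcd3, the BAF60C subunit of SWI/SNF remodelers, also dipped and came back. WT preadipocytes gave 11.3, 13.1 and 11.5 CPM at day 0, 6.20, 6.18 and 4.26 at day 3, 1.67, 2.03 and 1.60 at day 6, and 7.25 ± 0.674 in the mean of day 9. No library of a day overlapped with those of the day before, and the steps were -1.11, -1.63 and 2.03 on the log2 scale, the last with an adjusted p of 3.46e-05. In MEFs it was 10.3 ± 0.838, 6.03 ± 0.594, 5.61 ± 0.724 and 11.1 ± 1.59 CPM, and it rose 1.97-fold from day 8 to day 12 (adjusted p = 0.000397).

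**Figure D3:**
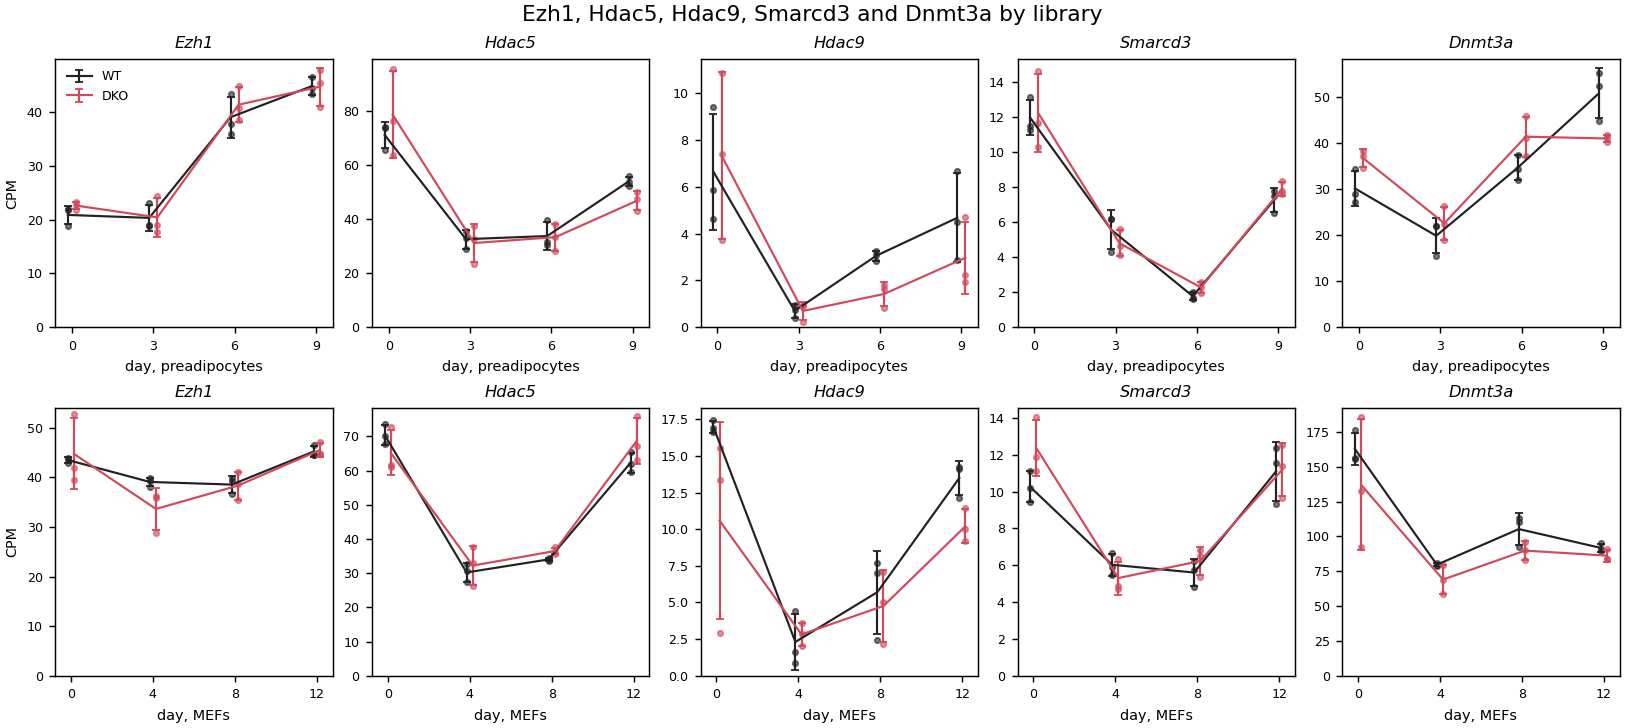
CPM of Ezh1, Hdac5, Hdac9, Smarcd3 and Dnmt3a (y axis from 0) by day (x axis), with 1 point per library, lines through the group means, bars of ± SD, WT and DKO in separate colours, preadipocytes above and MEFs below. Hdac5, Hdac9 and Smarcd3 are lower at the second day sampled than at day 0 in both cell types and higher again at the last day than at their lowest.

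Among the other deacetylases, Hdac1 fell from day 3 to day 6 in preadipocytes (-0.54), and Hdac2 and Hdac3, which with Hdac1 supply the catalytic subunits of the Sin3, NuRD and NCoR corepressor complexes, fell over the last step in both cell types (Hdac2 by 0.50 and 0.56, Hdac3 by 0.30 and 0.37 on the log2 scale). The class IV enzyme Hdac11 fell from 9.93 ± 1.24 to 4.50 ± 0.926 CPM between days 3 and 6 of preadipocytes and from 18.8 ± 1.65 to 10.6 ± 2.49 CPM between days 0 and 4 of MEFs, both called. Of the NAD-dependent sirtuins, Sirt1 rose from day 3 to day 6 of preadipocytes (0.79, adjusted p = 0.000127), and Sirt6 fell over the first MEF step (-0.51).

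Among the acetyltransferases the paralogs Kat2a (GCN5) and Kat2b (PCAF) crossed in time. Kat2a rose over the first step in both cell types (0.34 in each) and fell over the last (-0.45 and -0.47). Kat2b averaged 31.2 ± 6.86, 50.3 ± 4.05 and 66.2 ± 1.95 CPM over days 3, 6 and 9 of preadipocytes, with both steps called, and rose from 43.6 ± 1.19 to 64.0 ± 0.939 CPM over the last MEF step (0.55, adjusted p = 0.00265). Kat5, the catalytic subunit of TIP60, fell over the first step in both (-0.24 and -0.36).

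The H3K4 methyltransferase Kmt2a, which encodes MLL1, fell from 116 ± 2.53 to 62.5 ± 6.80 CPM between days 3 and 6 of preadipocytes (adjusted p = 1.17e-05), and Kmt2d fell with it (-0.42), while Kmt2c rose over the first step (0.38) and Setd2, the H3K36 methyltransferase, was called in MEFs at the last step (-0.17, adjusted p = 0.0391, and 0.272 without the 3 libraries). Of the demethylases, Kdm6a, which removes H3K27 methylation, and Kdm3a, which removes H3K9 methylation, rose from day 3 to day 6 of preadipocytes (0.54 and 0.47), and Kdm5b, an H3K4 demethylase, fell (-0.55). In MEFs Kdm1a (LSD1), Kdm4c and Kdm5b fell over the first step (-0.23, -0.21 and -0.42). Of the remaining remodelers and readers, Smarca4 (BRG1) fell over the last step in both (-0.24 and -0.33), Chd7 rose from day 3 to day 6 of preadipocytes (1.03), and the bromodomain gene Brd2 rose over the first step (0.37 and 0.48) and fell over the last (-0.69 and -0.25). The call of Chd7 was lost in 5 of 12 other fits (adjusted p up to 0.0769). In the last preadipocyte step the replicate numbers of days 6 and 9 went together, and with the numbers as a block the adjusted p became 0.0627 for Smarca4 and 0.0715 for the demethylase Kdm4a.

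Preadipocytes and MEFs share no library, so their WT steps could be set side by side over the 15375 genes tested in both. At the first step 11 members were called higher in both cell types (Kat2a, Hdac3, Hdac4, Ezh2, Eed, Suz12, Ehmt1, Suv39h1, Brd2, Uhrf1 and Tet2), 7 were called lower in both (Kat5, Hdac5, Hdac7, Hdac9, Ehmt2, Smarcd3 and Dnmt3a), and 0 were called in opposite directions. These were 22.4%, 14.3% and 0.0% of the members, where all genes gave 13.0%, 13.8% and 2.61%. Among the 11, the MEF call of Uhrf1 (adjusted p = 0.0468) was lost in 7 of 13 other fits (up to 0.504). The preadipocyte call of Hdac4 was lost in 4 of 12 (up to 0.158). At the last step 4 were called higher in both (Kat2b, Hdac5, Hdac7 and Smarcd3), 11 lower in both (Kat2a, Hdac2, Hdac3, Ezh2, Suz12, Kdm4a, Ehmt1, Smarca4, Brd2, Dnmt1 and Uhrf1), and 0 in opposite directions. Against 8.16%, 22.4% and 0.0% of the members stood 8.37%, 8.93% and 0.54% of all genes. The last steps were unlike in time: the full cocktail was given for 4 days in preadipocytes, so that it had ended before day 6. In MEFs it was given for 8 days, so that the last step began as it ended. Without the 3 MEF libraries the first step gave the same counts (14.0%, 14.7% and 4.69% of all genes), and the last gave 5 higher and 10 lower in both and 1 opposite, Dnmt3a (10.8%, 9.16% and 1.1%).

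Levels were compared between members only per kilobase of exon. Chd4, the remodeling ATPase of NuRD, or Brd2 was highest in every group, with Chd4 at 30.4 to 42.0 CPM per kb in the WT groups in which it was first. The lowest members were Hdac9, Tet1, Dnmt3b or Chd7 by group, with Hdac9 at 0.0474 CPM per kb at day 3 of WT preadipocytes. The median member lay between 4.32 and 7.71 CPM per kb over the 16 groups.

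The comparison of DKO with WT asked whether loss of the HMGN proteins altered expression of these genes. In preadipocytes at day 0 and day 3, 0 of 49 members were called, against 0.218% and 0.351% of all genes. At an unadjusted p under 0.05, 5 members passed at day 0 and 0 at day 3 (10.2% and 0.0%, against 7.86% and 12.2% of all genes). DESeq2 also called 0 at both. The members' median log2 fold change was 0.08 at day 0 and 0.00 at day 3, with 39 members higher in DKO at day 0 against 50.2% of all genes. The largest differences at day 0 that kept the genotypes from overlapping were under 1.5-fold, such as Kat2b (41.2, 44.7 and 45.9 CPM in DKO, 34.2, 37.0 and 40.3 in WT, adjusted p = 0.588).

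At day 6, 5 members were called lower in DKO preadipocytes and 0 higher. Of all 14694 genes tested, 9.96% were called lower and 11.6% higher, so the 10.2% of members called lower was near the background. That none was called higher depended on the fit: Kdm3a was called higher by DESeq2 (adjusted p = 0.0375), Dot1l without the filter on low counts (0.0451), and Kdm3a, Dot1l and Kdm6b in a single fit over the 24 preadipocyte libraries (0.00317, 0.0341 and 0.0318). On simulated counts of this day 20.7% of DESeq2's calls were false, against 10% of edgeR's. Of 14502 genes there, 98 were set 2-fold and 97 were set 1.5-fold apart. Whether these false shares hold for the measured counts was not tested. Dnmt1 was 40.6, 38.4 and 41.2 CPM in WT and 30.2, 28.5 and 25.6 CPM in DKO, and the genotypes did not overlap. The difference was -0.52 ± 0.0884 on the log2 scale (SE, n = 3 per genotype, adjusted p = 0.00793). Uhrf1 was 11.1, 10.2 and 11.2 CPM in WT and 7.34, 9.19 and 6.49 in DKO (-0.51 ± 0.143, adjusted p = 0.0389), again without overlap.

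The class IIa deacetylases Hdac9 and Hdac7 had the largest differences of that day. Hdac9 was 2.81, 3.09 and 3.23 CPM in WT and 1.62, 0.816 and 1.82 in DKO, 2.12-fold lower (adjusted p = 0.0315). Hdac7 was 47.0, 38.5 and 34.9 CPM in WT and 27.6, 26.6 and 17.3 in DKO, 1.69-fold lower (adjusted p = 0.0291). Setdb1 was 53.0, 56.2 and 48.8 CPM in WT and 44.9, 38.0 and 44.1 in DKO, 1.25-fold lower (adjusted p = 0.0456). The lowest WT library lay above the highest DKO library for each of the 3.

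Of the 5, Dnmt1 kept an adjusted p of at most 0.046 in all 12 other fits. When a fold change of at least 1.5 was also required, Hdac9 and Hdac7 were the 2 called and Dnmt1 was not. Each of the others lost it when single libraries were left out: the adjusted p reached 0.141 for Uhrf1 without WT replicate 3, 0.109 for Hdac9 without WT replicate 3, 0.108 for Setdb1 without WT replicate 1 and 0.0753 for Hdac7 without WT replicate 1. Without WT replicate 1 or without WT replicate 3, Dnmt1 alone was called. Of all genes 11.1% and 5.68% were then called, against 21.6% with all libraries, so calls were lost in general.

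Other gene groups differed between the genotypes at day 6 as well. The 28 proliferation genes summed to 429 to 504 CPM in WT and 277 to 338 CPM in DKO, and 21 of them were called lower. The 10 macrophage and leukocyte markers, all detected, summed to 6629, 10600 and 10670 CPM in WT and 5077, 2195 and 3584 CPM in DKO. Fibroblast and preadipocyte markers were 11380 ± 962 in WT against 4171 ± 840 CPM in DKO, adipocyte markers 21240 ± 2352 against 28680 ± 2924 CPM, and brown-like adipocyte markers 300 ± 60.3 against 809 ± 91.1 CPM. Their part in the members' differences was not tested.

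At day 9 of preadipocytes 0 members were called, against 2.11% of all genes. At an unadjusted p under 0.05, 10 members passed (20.4%, against 27.1% of all genes). DESeq2 called 3 lower: Dnmt1, Dnmt3a and Kdm5b. Dnmt1 was 30.8, 29.1 and 28.9 CPM in WT and 22.6, 26.7 and 21.4 in DKO (-0.37 ± 0.0964, adjusted p = 0.0763), and Dnmt3a was 44.7, 55.1 and 52.5 CPM in WT and 41.8, 40.1 and 41.0 in DKO (-0.35 ± 0.0912, adjusted p = 0.0751), both without overlap. Without DKO replicate 2 the count rose to 7, with Suz12, Hdac2, Sirt1 and Hdac3 higher and Dnmt1, Hdac7 and Kdm5b lower. Of all genes 11.1% were then called higher and 10.8% lower, so the members' share was below the background. That library held 11810 CPM of fibroblast and preadipocyte markers, against 5599 and 4132 CPM in the other DKO libraries of the day.

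In MEFs at days 0, 4 and 8, 0 members were called between the genotypes, against 0.102%, 0.0905% and 0.0595% of all genes. At an unadjusted p under 0.05, 4, 1 and 2 members passed (8.16%, 2.04% and 4.08%, against 9.28%, 5.91% and 8.57% of all genes). DESeq2 called 0 on each day. At day 0 Uhrf1 was 31.4, 33.6 and 30.1 CPM in WT and 26.3, 8.51 and 11.3 CPM in DKO (-1.04 ± 0.401, adjusted p = 0.533). All WT libraries were higher, with DKO replicate 1 near WT and the others far below. Without DKO replicate 1, 3 members were called lower (6.12%, against 2.37% of all genes), Uhrf1 (-1.66, adjusted p = 0.0237), Dnmt1 (-0.76, adjusted p = 0.0327) and Ezh2 (-0.72, adjusted p = 0.0327), and the proliferation genes summed to 991 CPM in that library against 473 and 570 CPM in the other DKO libraries and 1038 to 1168 CPM in WT.

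Leaving out the 3 libraries that stood apart gave 0 calls at day 4 (0.12% of all genes) and 5 lower at day 8 of MEFs (10.2% of the members, against 5.43% of all genes called lower and 11.2% called in either direction). The 5 were Kmt2a (-0.33, adjusted p = 0.0200), Dnmt1 (-0.30, adjusted p = 0.0360), Dnmt3a (-0.28, adjusted p = 0.0350), Kmt2c (-0.32, adjusted p = 0.0285) and Tet2 (-0.31, adjusted p = 0.0485). Of the 3 libraries, only WT replicate 1 belongs to day 4. At day 8 WT replicate 2 and DKO replicate 3 were left out, which left 2 libraries per genotype. This set of libraries was chosen after the data had been seen.

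At day 12 of MEFs, 11 members were called lower in DKO and 0 higher. Of all 15319 genes, 15.8% were called lower and 17.3% higher, and 22.4% of the members were called lower. Without the filter on low counts, and also without DKO replicate 1, Hdac5, Kdm6b and Kdm3a were called higher. Uhrf1 was 8.03, 7.51 and 7.55 CPM in WT and 4.13, 3.36 and 5.20 in DKO, 1.81-fold lower (-0.86 ± 0.153, adjusted p = 0.000419). Dnmt1 was 48.3, 50.3 and 45.2 CPM in WT and 38.0, 36.1 and 40.2 in DKO (-0.32 ± 0.0591, adjusted p = 0.0005). Kat2a was 37.7, 38.7 and 34.5 CPM in WT and 29.5, 30.2 and 30.7 in DKO (-0.29 ± 0.0623, adjusted p = 0.00202). None of these 3 overlapped between the genotypes, and of the 11 only Uhrf1 differed by more than 1.5-fold.

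The other 8 were lower by 1.11- to 1.31-fold. They were the deacetylases Hdac9 (12.2, 14.1 and 14.2 CPM in WT, 11.5, 9.16 and 9.98 in DKO, adjusted p = 0.0106), Hdac11 (adjusted p = 0.0309) and Hdac4 (0.0227), the H3K9 methyltransferases Ehmt2 (0.00832) and Setdb1 (0.0218), the demethylases Kdm1a (0.00851) and Kdm5b (0.0233) and the acetyltransferase Kat5 (0.0476). In 17 of the 49 members every DKO library lay below every WT library, and in 0 every DKO library lay above, or 34.7% and 0% where all genes gave 23.9% and 22.8%. A single fit over all 24 MEF libraries called 0 members, with an adjusted p of 0.137 for Uhrf1 and 0.257 for Dnmt1. Without single libraries the count was 5 to 10, at its lowest without WT replicate 2.

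The same marker lists differed at day 12. The proliferation genes summed to 380 to 389 CPM in WT and 266 to 327 CPM in DKO, with 16 of 28 called lower and 1 higher. Macrophage and leukocyte markers were 5171 to 5222 CPM in WT and 3340 to 3822 CPM in DKO, fibroblast and preadipocyte markers 15850 ± 317 against 9411 ± 484 CPM, and adipocyte markers 16280 ± 74.5 against 24380 ± 644 CPM. Their part in the members' differences was not tested.

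**Figure D4:**
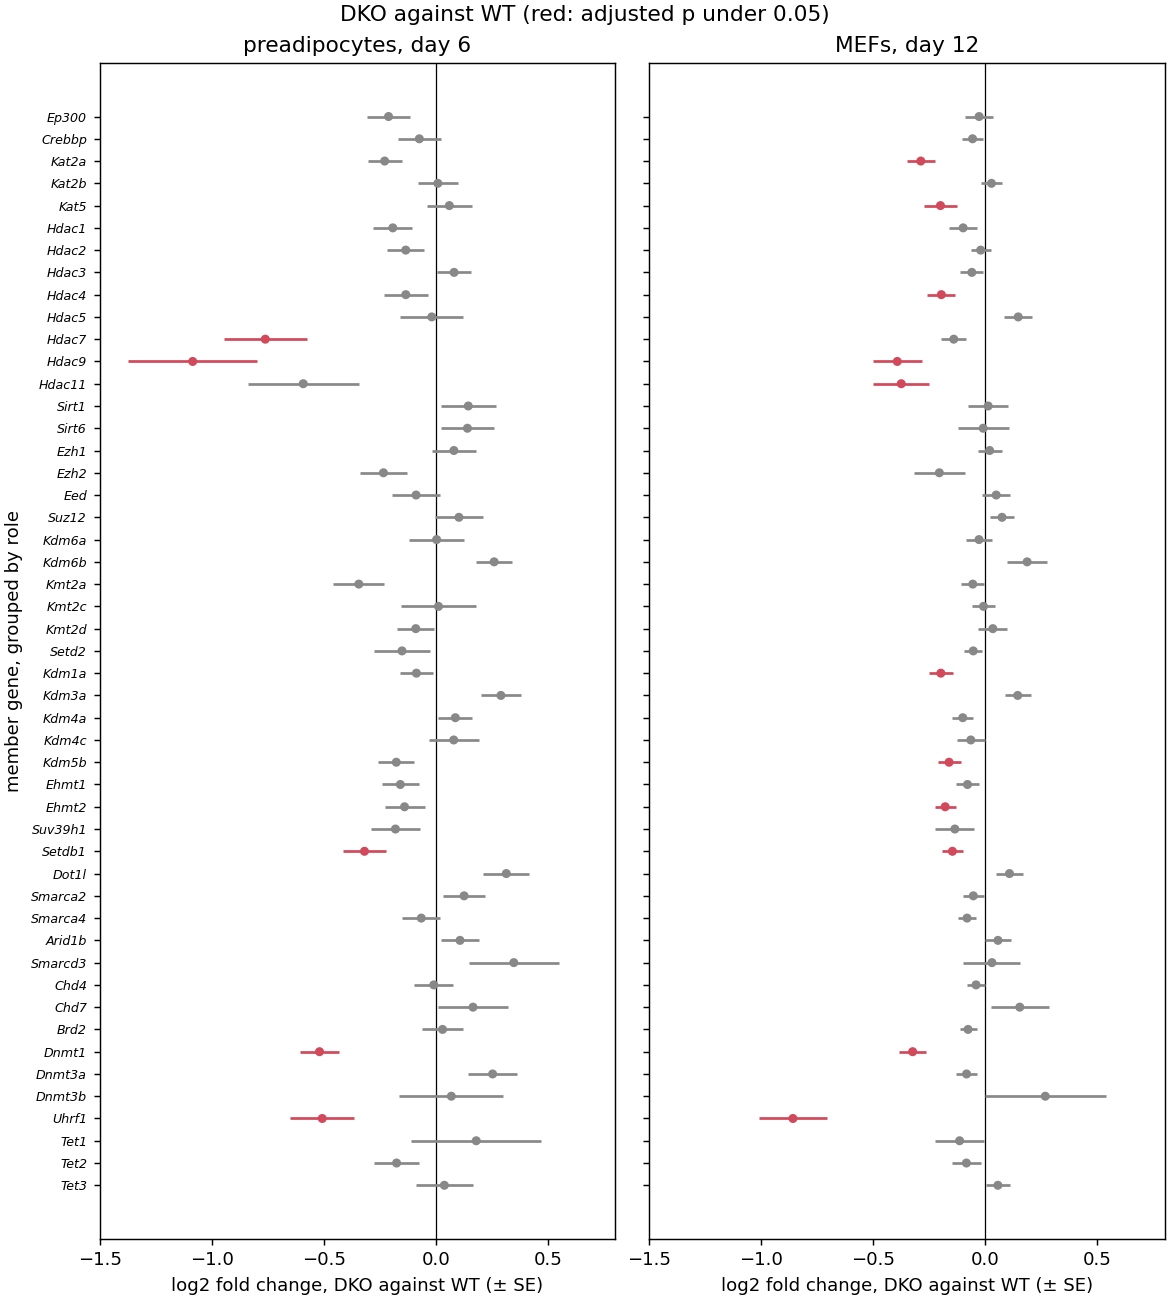
Log2 fold change of each member, DKO against WT (x axis, points with ± SE bars), grouped by role (y axis), for preadipocytes at day 6 and MEFs at day 12, with members called at an adjusted p under 0.05 in red. All called members lie to the left of 0, and Dnmt1, Uhrf1, Hdac9 and Setdb1 are red in both panels.

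Dnmt1, Uhrf1, Hdac9 and Setdb1 were called lower in DKO both at day 6 of preadipocytes and at day 12 of MEFs, which share no library. They were 8.16% of the members, and 5.81% of the 14144 genes tested in both were called lower in both. At day 12 the call of Setdb1 was lost under DESeq2 (adjusted p = 0.0649) and without any 1 library other than DKO replicate 2 (0.0557 to 0.0718). By role, the DNA methylation genes had 2 of 7 called lower in each (Dnmt1 and Uhrf1). The class IIa deacetylases had 2 of 4 in each, but not the same pair (Hdac9 and Hdac7 at day 6, Hdac9 and Hdac4 at day 12). PRC2, the class I deacetylases, the sirtuins, the H3K27 demethylases and the remodelers and readers had 0 called in either. Of all genes 9.96% and 15.8% were called lower, and the roles are too small to be set against these shares. The median member differed by -0.02 on the log2 scale at day 6 and by -0.06 at day 12, where the median gene differed by -0.01 and 0.00.

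The test for genotype effects that varied with the day called 0 members in either cell type, against 2.08% of genes in preadipocytes and 0.0177% in MEFs. At an unadjusted p under 0.05, 9 and 6 members passed (18.4% and 12.2%, against 18.3% and 9.24% of all genes). DESeq2 called 2 and 1. The differences between days in the number of members called are therefore not shown to be differences in effect.

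Of 108 further chromatin genes that are no members, 5 were called higher and 5 lower in DKO at day 6 of preadipocytes (4.63% each, against 11.6% and 9.96% of all genes). At day 12 of MEFs 11 were called higher and 17 lower (10.2% and 15.7%, against 17.3% and 15.8%). In the other 6 genotype comparisons 0 were called, against 0.0595% to 2.11% of all genes. Examples at day 6 are the mitochondrial deacetylase Sirt3 (0.79 ± 0.106, adjusted p = 0.00422) and the remodeler Hells, which supports DNA methylation (-0.76 ± 0.167, adjusted p = 0.0173). At day 12 the H4K20 methyltransferase Kmt5a was higher (0.44 ± 0.0497, adjusted p = 5.15e-06) and Prdm16, a regulator of brown and beige fat, was lower (-0.61 ± 0.11, adjusted p = 0.00047). In the WT time course Sirt3 rose 2.91-fold from day 3 to day 6 of preadipocytes (adjusted p = 7.79e-08) and Hells fell 4.52-fold from day 8 to day 12 of MEFs (adjusted p = 6.36e-07).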

How the data were processed

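The labels credit STAR 2.7.0f, RSEM 1.3.0 and the mouse build mm10 to the submitters' processing notes, and the authors deposited RSEM expected counts per gene, 1 table per cell type, with neither filter nor scaling. The members and gene lists were chosen with earlier results of these data known. Here the expected counts were rounded (5.49% to 7.9% of values per library were not whole) and tested with edgeR 4.0.16 in R 4.3.3 (TMM scaling, filterByExpr, quasi-likelihood test) within each cell type, all genes adjusted together by the Benjamini-Hochberg method with a threshold of 0.05. Genotype was fitted per day on 6 libraries, WT steps over the 12 WT libraries and genotype by day over 24. CPM used TMM library sizes. An exact permutation test of 3 against 3 cannot go below p = 0.1, so single values were not tested that way. Members were named by their range over WT days, their call between genotypes and their role. Replicates differed by more than sampling noise (chi-square per degree of freedom from 2.13 to 160). Replicate numbers did not pair WT with DKO throughout (correlations of deviations from -0.69 to 0.60, both ends at day 8 of MEFs). In preadipocytes the correlations for replicates 1, 2 and 3 were 0.286, -0.267 and 0.524 at day 0. At day 3 they were 0.448, 0.0356 and 0.542, so some early pairs went together. Correlations were over 0.1 in every pair only for WT preadipocytes between days 6 and 9 (0.129 to 0.452) and for DKO preadipocytes between days 0 and 3 and days 6 and 9. Simulated counts of WT and DKO preadipocytes at day 6 held 14502 genes, with 98 set 2-fold apart and 97 set 1.5-fold apart. The edgeR test recovered 74.5% of the 98 and 36.1% of the 97, with 10% of its calls false. At day 0, with 99 genes set apart at each fold, the edgeR test recovered 49.5% and 8.08% over 14889 genes. For genotype by day in preadipocytes it recovered 38.1% of 97 and 8.42% of 95 over 16356 genes. DESeq2 gave more false calls on the same simulated counts: 20.7% of its calls at day 6, 30.8% at day 0 and 31.6% for genotype by day. The edgeR shares were 10%, 6.56% and 6.25%. In the measured counts of day 6, 21.6% of all genes were called. Whether the recovered and false shares hold where more genes differ was not tested. Alternatives were DESeq2 1.42.0, limma-voom (limma 3.58.1), library size scaling, no filter, a replicate block, 1 fit over all libraries, a fold threshold and leaving out libraries.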

Additional observations from a re-analysis of the deposited data

How the results depend on the processing

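No called member changed its direction under another tool, scaling, filter or block. Counts of called members moved by more than 1.5 times as follows. Where no value for all genes stands beside a count, its move is not shown to be particular to the members. With a fold change of at least 1.5 also required, the genotype counts were 2 (preadipocytes day 6) and 1 (MEFs day 12), the WT preadipocyte steps gave 7, 18 and 5 and the WT MEF steps 8, 0 and 7. DESeq2 gave 3 at day 9 of preadipocytes, 7 at day 12 of MEFs, 4 for the MEF step from day 4 to 8, and 2 (preadipocytes) and 1 (MEFs) for genotype by day. Scaling by library size only gave 8, 3 and 17 for the genotype at days 6 and 9 of preadipocytes and day 12 of MEFs, and 5 for the MEF step from day 4 to 8. Over all genes it called 1170 higher and 2034 lower, 121 and 431, 2088 and 3342, and 323 and 1798 in these comparisons. Limma-voom gave 3 at day 6, and no filter gave 1 at day 9. A single fit over 24 libraries gave 1 at day 9 (Hdac3, higher) and 0 at day 12 of MEFs, with or without the libraries that stood apart, and 0 for the MEF step from day 4 to 8. Without the 3 MEF libraries that stood apart, chosen after seeing the data, that step gave 24 and day 8 gave 5. The cause was not tested.

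Leaving out 1 library at a time gave 0 to 0 genotype calls at days 0 and 3 of preadipocytes, 1 to 5 at day 6 and 0 to 7 at day 9, and 0 to 3, 0 to 0, 0 to 0 and 5 to 10 over the MEF days. The shares of all genes ran from 5.68% to 19.7% at day 6 and from 0.134% to 21.9% at day 9. In MEFs they ran from 0.0311% to 3.63% at day 0 and from 24.8% to 34.6% at day 12. On the days with 0 to 0 calls they were at most 0.181%. WT steps ranged over 17 to 21, 29 to 31 and 10 to 14 in preadipocytes and 23 to 29, 0 to 15 and 19 to 21 in MEFs, and genotype by day over 0 to 2 in each. Of all genes 34.4% to 40.2%, 57.1% to 61.3% and 17.7% to 22.5% were called over the preadipocyte steps. The MEF steps gave 46.2% to 54.8%, 0.12% to 29.9% and 30.4% to 40.9%. Genotype by day gave 0.314% to 5.42% in preadipocytes and 0.0% to 2.57% in MEFs. For the last preadipocyte step the lowest count was without WT day 9 replicate 2. Genotype by day gave 2 without DKO day 9 replicate 2 in preadipocytes and 2 without DKO day 0 replicate 1 in MEFs.

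With the replicate number as a block, the genotype counts were 0, 0, 5 and 0 in preadipocytes and 0, 0, 0 and 11 in MEFs, WT steps 21, 30 and 15 and 29, 2 and 24, and genotype by day 0 in both. The sets changed under the block. At day 6 Uhrf1 (adjusted p = 0.07) and Setdb1 (0.063) lost their call while Kmt2a (lower, 0.0172) and Dot1l (higher, 0.0437) gained one, and at day 12 Kat5 lost it (0.0574) while Hdac5 (higher, 0.0442) gained one.

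Library size scaling moved the median gene by -0.11 (genotype, day 6 of preadipocytes), -0.17 (WT preadipocytes, day 3 to 6), 0.17 (WT MEFs, day 0 to 4) and -0.14 (day 4 to 8), and the share of higher calls over all genes from 53.8% to 36.5% at day 6, 55.5% to 21.9% at day 9 and 52.3% to 38.5% at day 12 of MEFs.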
